A study of Mus musculus with 15 samples.

Results

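AP-1 is a family of transcription factors that bind DNA as pairs of basic leucine zipper proteins, and 8 of its genes and close relatives are described here: Fos, Fosb, Fosl2, Jun, Junb, Jund, Atf3 and Maff. They were found among 45232 Ensembl gene IDs of a read count table by their mouse symbols. They were selected on measured values of these same libraries, since Fos and Atf3 were already known to differ between vehicle-treated mutant and WT cells and between combined treatment and vehicle. Differences of the 8 genes in comparisons that share those libraries are therefore descriptions and carry no p-value. All 8 genes passed the filter on low counts, as did 17834 IDs in all (39.4%).

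The cells were CD45.2+ LSK cells of C57BL/6 bone marrow, which lack lineage markers, carry Sca-1 and c-Kit and include the stem cells; they were sequenced in 15 libraries as 5 groups of 3. In 4 groups the cells carried Jak2 V617F together with Idh2 R140Q, and their recipients had been given vehicle, AG221 (an inhibitor of mutant IDH2), ruxolitinib (an inhibitor of JAK kinases) or both drugs by gavage (BID) over 21 to 28 days. On the labels, AG221 was dosed at 40 mg/kg and ruxolitinib at 60 mg/kg, and the last dose preceded sacrifice by about 1.5 hours. The fifth group was WT. Both alleles were conditional and were switched on with Mx1-Cre by injections of polyI:polyC, a double-stranded RNA that itself induces interferon. Mutant CD45.2 marrow was mixed with CD45.1 WT marrow and given to lethally irradiated CD45.1 hosts, so the sorted cells had matured beside WT competitor cells and in host tissue. The study's mice were male and female adults, and neither the age per group nor whether the WT cells came from transplanted or vehicle-treated mice is stated. The study speaks of the sequenced samples as mice, the labels do not tie a library to an animal, and whether a library was a single animal or a pool is not stated, so every p-value given here measures the spread between these libraries.

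Fos family proteins cannot pair with one another and bind DNA through a Jun partner, whereas Jun family proteins can also pair among themselves. Fos, Fosb, Jun, Junb and Atf3 are immediate early genes: MAP kinase signals, cytokines and cell stress switch on their transcription without new protein synthesis, and AU-rich stretches in several of these mRNAs make them short-lived. In blood-forming cells AP-1 takes part in myeloid differentiation and inflammatory gene expression, and loss of Junb in mice gives a myeloproliferative disease. JAK2 with the V617F substitution signals without cytokine to STAT proteins and MAP kinases, and IDH2 with R140Q makes 2-hydroxyglutarate, which inhibits enzymes that demethylate DNA and histones.

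The 15 libraries held between 18836625 and 32174287 counts (median 25545779). By group they were 24310100 to 26408209 in WT, 18836625 to 29580486 with both drugs, 27433630 to 32174287 with vehicle, 22116122 to 28369651 with AG221 and 22004150 to 27743702 with ruxolitinib. Levels are given as CPM, counts scaled to a common library size after TMM normalization. A count of 0 allows up to 3 counts, or 0.0957 to 0.157 CPM, a limit that covers counting error only because PCR reads without molecular identifiers are not independent molecules.

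The libraries differ in ways the group names do not state. Names of replicates start with A for vehicle, AG221 and ruxolitinib (9 libraries) and with B for combined treatment and WT (6 libraries), and the letter's meaning is not given. Where the letters of the compared groups differ, group and letter cannot be told apart. Comparisons within a letter are AG221, ruxolitinib and vehicle among themselves, and combined treatment against WT. Xist, the RNA of the silenced X chromosome, was at 481 ± 28.2 CPM (SD, n = 3) in WT and at most 19.5 CPM in every other library. The Y-linked gene Ddx3y was at no more than 0.101 CPM in WT and between 124 and 206 CPM elsewhere. In every comparison with WT, group and sex thus cannot be told apart. Transcripts rich in G and C were low in AG221 A8 and A10 and ruxolitinib A16. Relative to the mean of all libraries, the 1775 genes with the highest GC content (above 57.3%) had a median log2 level of -1.03 in A8. It was -0.74 in A10 and -0.38 in A16, and between -0.17 and 0.22 in the other libraries named A. In the 6 libraries named B it was between 0.24 and 0.35, above all 9 named A. This level thus also differs in every comparison across the letters. WT libraries had 29782 to 34487 genes detected and TMM factors from 1.132 to 1.169, and all others 21369 to 26329 genes and 0.9163 to 1.019. A8 and A10 had the highest mitochondrial shares (1.461% and 1.458%) and the highest shares in their top 50 genes (12.59% and 12.27%). The part of these differences in the results was not tested, and some values without A8 and A10 and with GC content offsets per library, both chosen after seeing the data, are given below. Without A8 and A10 the AG221 group is the single library A9. Comparisons with AG221 then have no spread between AG221 libraries, and only their log2 fold changes are given.

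The start regions of 5 of the genes are shown because these 5 genes differed most between vehicle and WT among the 8, and because all are immediate early genes whose transcription is known to start from short elements close to the start site. The sequences are RefSeq promoter windows of GRCm38.p6, 250 bases before to 50 bases after the start, read 5′ to 3′ on the gene's own strand. Capitals mark matches to TGACG (the short form of the cAMP response element, shown as CGTCA on the other strand), to TGACATCA (the variant of that element known from the Jun promoter) or to the TATA box TATAAA. Fos lies at chr12:85473640-85473939 (plus strand), Fosb at chr7:19309996-19310295 (minus), Atf3 at chr1:191183284-191183583 (minus), Jun at chr4:95052173-95052472 (minus) and Junb at chr8:84978699-84978998 (minus).
Fos: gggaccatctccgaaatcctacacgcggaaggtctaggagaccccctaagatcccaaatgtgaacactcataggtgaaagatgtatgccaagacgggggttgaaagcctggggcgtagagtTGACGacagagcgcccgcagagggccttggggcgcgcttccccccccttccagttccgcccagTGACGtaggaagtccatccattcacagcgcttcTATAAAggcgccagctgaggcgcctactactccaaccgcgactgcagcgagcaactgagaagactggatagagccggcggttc
Fosb: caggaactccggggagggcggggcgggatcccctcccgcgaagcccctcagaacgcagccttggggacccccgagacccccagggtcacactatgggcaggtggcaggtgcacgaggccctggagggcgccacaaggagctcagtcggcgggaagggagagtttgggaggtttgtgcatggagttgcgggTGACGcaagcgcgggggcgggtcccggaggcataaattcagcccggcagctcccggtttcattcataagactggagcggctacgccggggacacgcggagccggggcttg
Atf3: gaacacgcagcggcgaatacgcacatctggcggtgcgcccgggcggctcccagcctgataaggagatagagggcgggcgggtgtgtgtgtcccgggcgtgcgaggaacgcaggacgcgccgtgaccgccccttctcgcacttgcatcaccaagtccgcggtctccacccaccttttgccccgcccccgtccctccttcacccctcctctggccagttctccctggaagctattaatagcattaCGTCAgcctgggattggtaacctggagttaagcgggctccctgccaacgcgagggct
Jun: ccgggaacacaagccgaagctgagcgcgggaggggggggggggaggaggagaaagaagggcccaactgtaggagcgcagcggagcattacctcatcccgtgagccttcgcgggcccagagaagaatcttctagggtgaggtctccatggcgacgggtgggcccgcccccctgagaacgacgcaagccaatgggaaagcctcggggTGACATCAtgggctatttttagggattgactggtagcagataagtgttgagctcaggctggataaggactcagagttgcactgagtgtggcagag
Junb: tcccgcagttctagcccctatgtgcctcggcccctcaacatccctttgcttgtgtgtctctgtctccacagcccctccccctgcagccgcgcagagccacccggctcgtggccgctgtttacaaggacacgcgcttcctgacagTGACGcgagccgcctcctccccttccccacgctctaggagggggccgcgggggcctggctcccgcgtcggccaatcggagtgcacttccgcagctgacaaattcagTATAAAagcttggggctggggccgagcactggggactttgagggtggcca

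Each of these 5 windows held TGACG or TGACATCA. With the start as position 1 and no position 0, Fos had TGACG at -129 to -125 and at -66 to -62, and TATAAA at -33 to -28. Fosb had TGACG at -60 to -56, Junb at -106 to -102, and Atf3 on the minus strand of the window at -7 to -3. Jun had TGACATCA at -45 to -38. TATAAA lay at 1 to 6 in the Junb window, whose RefSeq start is 30 bases from the nearest GENCODE start. All 8 genes had a window, 10 in all. The full element TGACGTCA, which contains TGACG on both strands, was found at -29 to -22 in the second of 3 Maff windows, and TGACATCA at -45 to -38 in another. The Fosl2 and Jund windows held none of the letters searched, and their RefSeq starts lie 299 and 1210 bases from the nearest GENCODE start. Neither TGANTCA, a site that AP-1 itself binds, nor the CArG box bound by serum response factor was in any window of the 8 genes. Elements more than 250 bases before the start were not searched, so their absence from these genes is not shown. Searched on both strands, TGACG was in 20.8% of all 32851 windows, TGACATCA in 3.62%, TGACGTCA in 1.79%, TGANTCA in 7.81%, the CArG box in 1.63% and TATAAA in 13.6%. TGACG and TGACATCA were added to the search after the windows had been seen.

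Fos (ENSMUSG00000021250, chromosome 12 of GRCm38, 85473890 to 85477273) encodes c-Fos, the short-lived partner of Jun proteins that gives the family its name. In WT B28, B30 and B31 it was at 126, 111 and 79.8 CPM, and in combined B24, B25 and B26 at 129, 33.4 and 70.7 CPM. In vehicle A1, A3 and A4 it was at 2712, 4975 and 1820 CPM, in AG221 A8, A9 and A10 at 1426, 1505 and 1731 CPM, and in ruxolitinib A14, A16 and A17 at 2500, 1589 and 2494 CPM. All 9 libraries of the vehicle and monotherapy groups lay above all 6 WT and combined libraries, the lowest of them 11.04-fold above the highest of those. Within the first set, every AG221 library was below every vehicle library, while the ruxolitinib values overlapped those of vehicle. Group means were 105.5 ± 23.6 CPM in WT, 77.7 ± 48.2 CPM with both drugs, 3169 ± 1627 CPM with vehicle, 1554 ± 158 CPM with AG221 and 2194 ± 525 CPM with ruxolitinib (SD, n = 3 each).

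Fosb (ENSMUSG00000003545, chromosome 7, 19302696 to 19310051) encodes FosB, a Fos relative whose shortened form lacks the end of the transactivation region. It was at 6.17, 4.25 and 3.49 CPM in the WT libraries (same order of replicates) and at 3.55, 1.80 and 3.145 CPM with both drugs. With vehicle it was at 143, 225.5 and 92.2 CPM, with AG221 at 66.6, 89.7 and 62.7 CPM and with ruxolitinib at 104.6, 37.0 and 74.7 CPM. As for Fos, the 9 and the 6 libraries were separate, by 5.99-fold at the nearest pair. Means were 4.63 ± 1.38 CPM in WT, 2.83 ± 0.917 with both drugs, 153.6 ± 67.3 with vehicle, 73.0 ± 14.6 with AG221 and 72.1 ± 33.9 with ruxolitinib (SD, n = 3 each).

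Fosl2 (ENSMUSG00000029135, chromosome 5, 32135801 to 32157842) encodes Fra-2, a more lasting Fos protein without the strong transactivation region of c-Fos. It ran from 4.89 to 7.11 CPM in WT, from 3.21 to 7.355 with both drugs, from 6.39 to 10.45 with vehicle, from 3.85 to 9.62 with AG221 and from 3.93 to 10.4 with ruxolitinib. These ranges overlap throughout, and only 5 of the 9 libraries named A exceeded the highest named B. Its means lay between 5.21 ± 2.07 CPM with both drugs and 8.64 ± 2.06 CPM with vehicle (SD, n = 3 each).

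**Figure D1:**
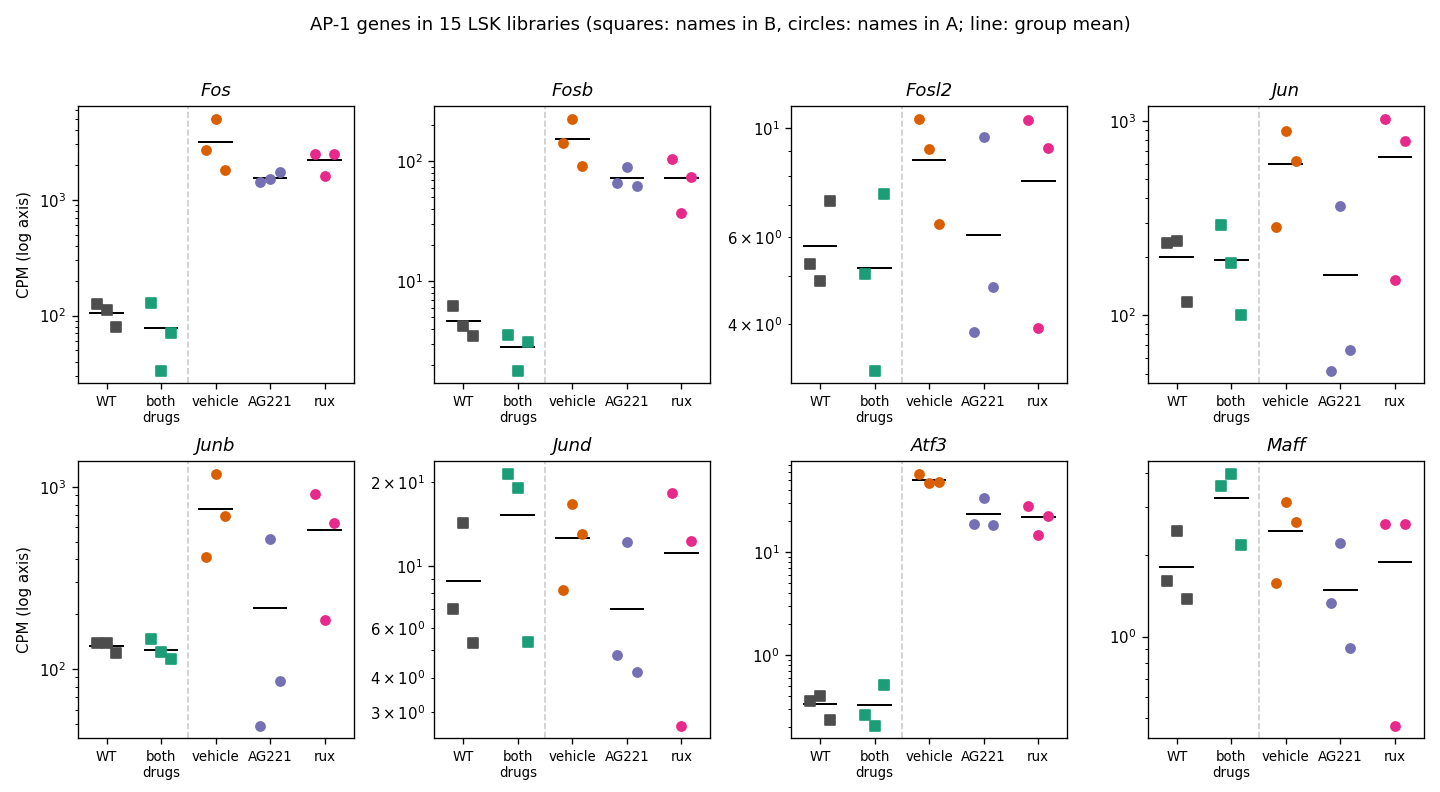
Level of each of the 8 genes in CPM (log axis) in every library, by group; squares are libraries named B, circles libraries named A, and lines are group means (n = 3). Fos, Fosb and Atf3 separate all 9 circles from all 6 squares, whereas Jun, Junb, Jund and Maff fall in AG221 A8 and A10 to the level of the squares or under it.

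Jun (ENSMUSG00000052684, chromosome 4, 95049034 to 95052222) encodes c-Jun, the main partner of Fos proteins and a substrate of the JNK kinases. It was at 236, 242 and 116.5 CPM in WT and at 291, 186 and 100.1 CPM with both drugs. With vehicle it was at 285, 891 and 623 CPM, with ruxolitinib at 1024, 152 and 792 CPM, and with AG221 at 51.7, 364.5 and 65.8 CPM. AG221 A8 and A10 were below every WT and combined library, and A9 was 7.05-fold above A8, and the AG221 mean was 161 ± 177 CPM (SD, n = 3). Ruxolitinib A16 stood 6.72-fold under A14. The other means were 198 ± 70.8 CPM in WT, 192.5 ± 95.8 with both drugs, 599.7 ± 303 with vehicle and 656 ± 451 with ruxolitinib (SD, n = 3 each).

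Junb (ENSMUSG00000052837, chromosome 8, 84974484 to 84978718) encodes JunB, which can restrain c-Jun and proliferation. WT libraries were at 138, 139 and 122 CPM and combined libraries at 145.5, 124 and 114 CPM. Vehicle libraries were at 410, 1176 and 689.5 CPM, AG221 libraries at 48.9, 515 and 86.0 CPM and ruxolitinib libraries at 913, 187 and 636 CPM. As for Jun, A8 and A10 were under all 6 libraries named B. The other 7 libraries named A were above them, where only 5 were for Jun (vehicle A1 and ruxolitinib A16 were not). WT and combined libraries lay close together, with means of 133 ± 9.66 and 128 ± 16.2 CPM, against 759 ± 388 with vehicle, 217 ± 259 with AG221 and 579 ± 366 with ruxolitinib (SD, n = 3 each). Of the exons of Junb, 7.52% lie opposite Prdx2, and of those of Jun 7.28% lie opposite Junos. The counting is not stated to use strand, so both levels are uncertain by an amount that was not measured.

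Jund (ENSMUSG00000071076, chromosome 8, 70698949 to 70700616) encodes JunD, the Jun protein of resting cells. It ran from 5.30 to 14.2 CPM in WT, from 5.37 to 21.3 with both drugs, from 8.20 to 16.7 with vehicle, from 4.18 to 12.15 with AG221 and from 2.69 to 18.3 with ruxolitinib. No group stood apart, and AG221 A8 and A10 and ruxolitinib A16 were below every library named B. Of the Jund exons, 52.6% lie opposite another gene model (Gm11175), the largest such share among the 8 genes. Their GC content of 67.15% exceeds that of 99.9% of tested genes, and the level is uncertain.

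Atf3 (ENSMUSG00000026628, chromosome 1, 191170296 to 191218039) encodes a stress-induced factor that pairs with Jun proteins and as a homodimer represses transcription. It was at 0.363, 0.404 and 0.235 CPM in WT, from counts of 10, 12 and 7, and at 0.261, 0.207 and 0.509 CPM with both drugs, from counts of 5, 6 and 11. With vehicle it was at 57.6, 46.6 and 48.6 CPM, with AG221 at 18.98, 33.7 and 18.4 CPM and with ruxolitinib at 28.45, 14.8 and 22.65 CPM. Every WT and combined library was above the limit that a count of 0 allows and below every other library, by 29.1-fold at the nearest pair. Every monotherapy library was also below every vehicle library. Means were 0.334 ± 0.0885 CPM in WT, 0.326 ± 0.161 with both drugs, 50.9 ± 5.84 with vehicle, 23.7 ± 8.66 with AG221 and 22.0 ± 6.84 with ruxolitinib (SD, n = 3 each).

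Maff (ENSMUSG00000042622, chromosome 15, 79346621 to 79359076) encodes a small Maf protein, which has a basic leucine zipper but no transactivation region. It was low in every group, from 1.38 to 2.46 CPM in WT, 2.17 to 3.97 with both drugs, 1.58 to 3.13 with vehicle, 0.909 to 2.205 with AG221 and 0.470 to 2.61 with ruxolitinib. The lowest value, in ruxolitinib A16, rests on 11 counts. WT and combined libraries overlapped the 3 other groups, and A8, A10 and A16 were again below every library named B.

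Compared per kb of exon, Fos transcripts were the most abundant of the 8 in the vehicle and monotherapy groups, and Jun transcripts in the WT and combined group means, although Junb exceeded Jun in WT B31 and combined B26. Mean levels of Fos were 44.8 CPM per kb in WT, 33.1 with both drugs, 1347 with vehicle, 661 with AG221 and 933 with ruxolitinib. Those of Jun were 62.1, 60.4, 188, 50.4 and 206 CPM per kb in the same order, and those of Junb 57.8, 55.5, 329.7, 94.2 and 251.5. Fosb, Jund, Atf3, Fosl2 and Maff were lower: with vehicle they were at 24.6, 7.58, 23.6, 0.892 and 0.945 CPM per kb. As 52.6% of the Jund exons lie opposite another gene model, its level and its place in this order are uncertain. Fosl2, Atf3 and Maff were at 1.25 CPM per kb or less in the WT and combined means.

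The balance between Fos and Jun transcripts also differed between libraries. Fos made up 78.1%, 71.1% and 58.8% of the summed CPM per kb of the 8 genes in vehicle A1, A3 and A4, and 58.3%, 82.4% and 65.6% in ruxolitinib A14, A16 and A17. In AG221 A8, A9 and A10 its share was 90.9%, 62.9% and 90.2%. It was between 24.2% and 27.6% in WT and between 10.1% and 25.8% with both drugs, where Jun and Junb together held the larger share. The ratio of summed Fos family (Fos, Fosb, Fosl2) to summed Jun family (Jun, Junb, Jund) levels per kb was 0.370 ± 0.0337 in WT, 0.276 ± 0.136 with both drugs, 2.86 ± 1.38 with vehicle and 2.91 ± 2.02 with ruxolitinib (SD, n = 3 each). With AG221 it was 15.3 in A8, 1.90 in A9 and 12.3 in A10. The Jun family sum includes Jund, whose level is uncertain. All 9 libraries named A were at 1.48 or above in this ratio and all 6 named B at 0.398 or below, and the high values of A8 and A10 go with their low Jun and Junb, not with higher Fos.

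**Figure D2:**
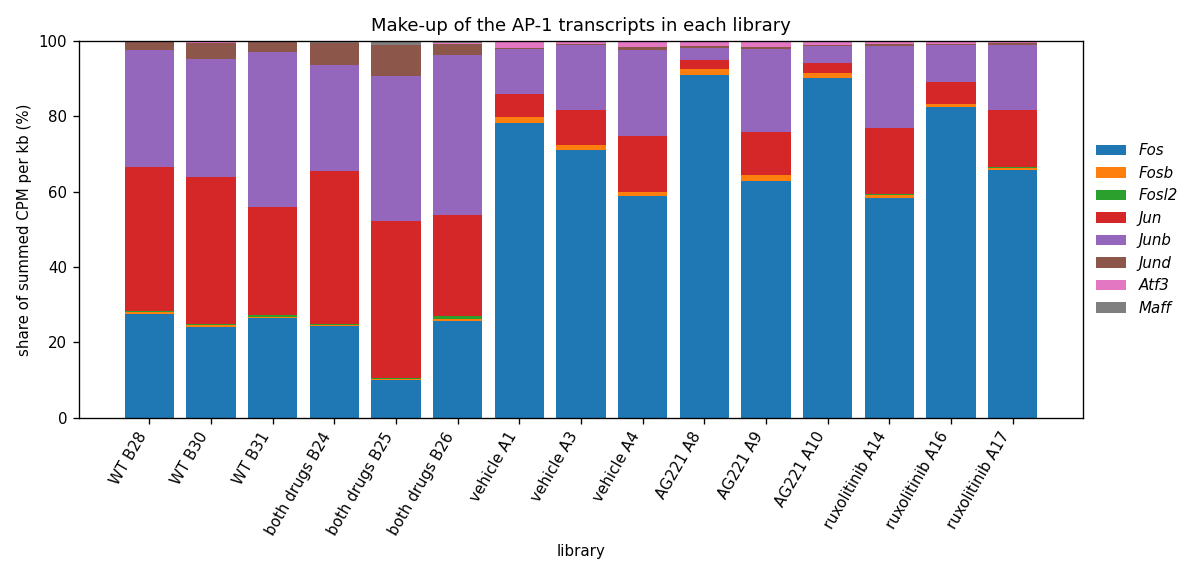
Share of each of the 8 genes in their summed CPM per kb of exon (vertical axis, percent), as 1 stacked bar per library, by group. Fos holds 58.3% to 90.9% of the bar in the vehicle, AG221 and ruxolitinib libraries and at most 27.6% in the WT and combined libraries.

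Vehicle-treated mutant cells were set against WT cells to ask how the combined alleles differ from normal LSK cells. On the log2 scale Fos was higher by 4.91 ± 0.49 (SE), a 30.1-fold difference, Fosb by 5.05 ± 0.46 and Atf3 by 7.23 ± 0.42. Junb was higher by 2.51 ± 0.75 and Jun by 1.598 ± 0.77. Fosl2 (0.58 ± 0.42), Jund (0.51 ± 0.66) and Maff (0.44 ± 0.53) had positive values with overlapping groups. An adjusted p under 0.05 in the edgeR quasi-likelihood test counts as called; Fos, Fosb, Junb and Atf3 were called, 4 of 8, where 33.3% of all tested genes were called, and with Jun 5 of 8 did not overlap, where 56.9% of all genes did not. Nothing is read from those counts, because the genes were chosen with this contrast known. The median of the 8 log2 fold changes was 2.05 and that of all tested genes -0.092, which became -0.18 with upper quartile scaling; every gene kept a positive sign under each scaling. Without vehicle A3, the library highest in Fos, 3 of the 8 were called and the log2 difference of Fos was 4.45; 3 were also called without WT B28, B30 or B31, and 5 without AG221 A9 or with GC content offsets, which moved Jund to 1.36. These are bulk samples, in which more cells with a transcript and more transcript per cell cannot be told apart, and the comparison crosses the replicate letters.

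**Figure D3:**
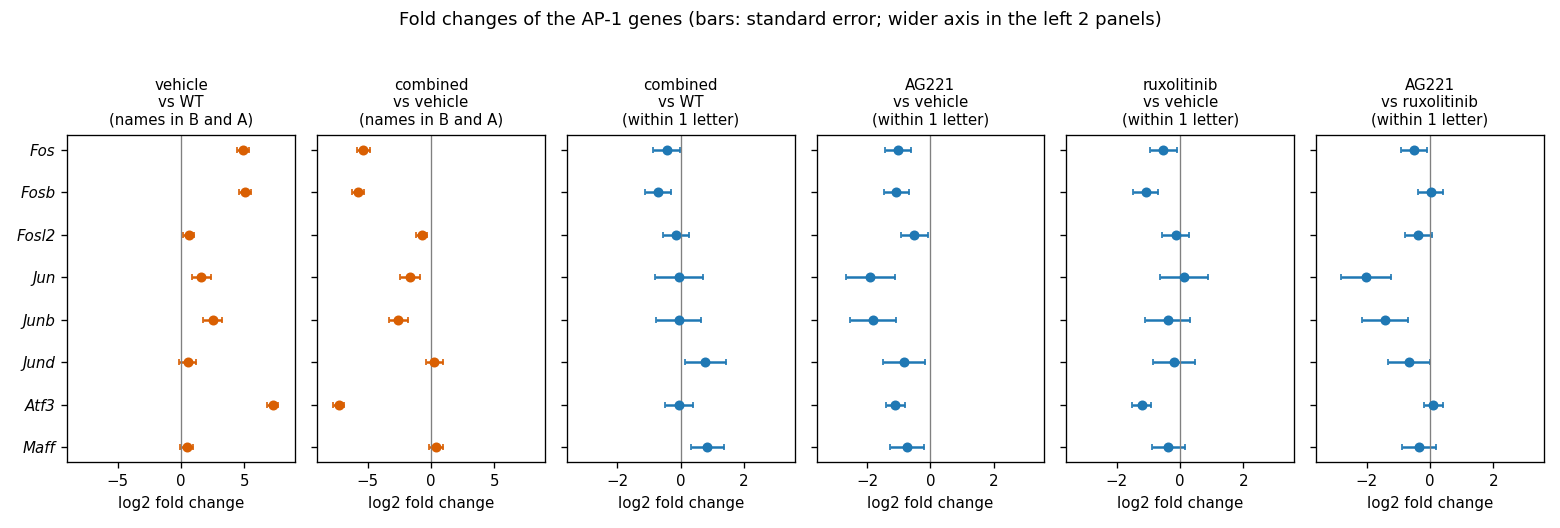
Log2 fold change of each of the 8 genes (points) with its standard error (bars) in 6 comparisons, 1 panel each, from the edgeR fit of all 15 libraries. The panels for vehicle against WT and for combined treatment against vehicle have a wider axis. Atf3, Fosb and Fos lie farthest from 0 in vehicle against WT (7.23, 5.05 and 4.91) and in combined treatment against vehicle (-7.29, -5.77 and -5.35), and all 8 lie between -0.72 and 0.84 in combined treatment against WT.

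Monotherapy was compared with vehicle within the letter A to ask how far either inhibitor alone alters the mutant cells. With AG221 the log2 fold changes of the Fos family were -1.03 ± 0.42 for Fos, -1.07 ± 0.39 for Fosb and -0.51 ± 0.42 for Fosl2 (SE). That of Atf3 was -1.10 ± 0.30, and the AG221 libraries of Fos, Fosb and Atf3 did not overlap those of vehicle, 3 of 8 where 20% of all genes did not overlap. Without vehicle A3, Fos was at -0.55 and Fosb at -0.70. Jun was at -1.90 ± 0.78 and Junb at -1.81 ± 0.73, with values that rest on the low pair A8 and A10. Without those 2 libraries, which leaves A9 alone in the AG221 group, Jun was at -0.72, Junb at -0.56, Fosl2 at 0.15, Atf3 at -0.60 and Fos at -1.08. Without A9 instead, Jun was at -3.36, Junb at -3.50 and Fosl2 at -1.01. GC content offsets gave -0.90 for Fos, -0.84 for Fosb, -1.07 for Atf3, -1.87 for Jun and -1.45 for Junb, and turned Jund from -0.85 to 0.20. Of the 8 genes, 0 were called by the edgeR quasi-likelihood test, where 0.987% of all genes were called (176) and 4498 of all genes had an unadjusted p under 0.05; DESeq2 called 3 of the 8 among 1261 genes higher and 1122 lower, and edgeR without A9 called 3 among 1497 higher and 3175 lower.

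With ruxolitinib, Atf3 alone among the 8 had no overlap with vehicle, at a log2 fold change of -1.21 ± 0.30 (SE), where 8.17% of all genes had none. Fosb was at -1.09 ± 0.39 and Fos at -0.53 ± 0.42, and without vehicle A3 they were at -0.71 and -0.048. Junb (-0.39 ± 0.71), Jun (0.13 ± 0.76), Maff (-0.37 ± 0.53), Jund (-0.19 ± 0.66) and Fosl2 (-0.14 ± 0.42) differed by less than their standard errors. The signs of the last 5 depend on single libraries: without A16, Fosl2 was at 0.18, Jund at 0.27 and Maff at 0.084, without A14 Jun was at -0.35, without vehicle A3 Junb was at 0.073 and Jund at 0.062, and without vehicle A1 Fosl2 was at 0.015 and Jun at -0.21. The edgeR quasi-likelihood test called 0 of the 8 and 0.0168% of all genes (3 genes), 813 of all genes had an unadjusted p under 0.05, and DESeq2 called 1 of the 8 among 7 genes higher and 48 lower.

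Combined treatment was compared with vehicle to ask what both inhibitors together do. Atf3 was at -7.29 ± 0.42 (SE), a 156.7-fold lower level, Fosb at -5.77 ± 0.48 and Fos at -5.35 ± 0.50. Junb was at -2.57 ± 0.75 and Jun at -1.64 ± 0.78, while Fosl2 was at -0.73 ± 0.42. Maff (0.41 ± 0.52) and Jund (0.27 ± 0.66) had positive values, that of Jund turning to -0.051 without B24 and to -0.92 with GC content offsets. Fos, Fosb, Junb and Atf3 were called lower and did not overlap, 4 of 8 beside 12.5% of all genes called and 34.7% not overlapping, counts from which nothing is read since Atf3 was known from this contrast. The count of called members was 3 when any 1 of the vehicle, combined or WT libraries or ruxolitinib A17 was left out, which all enter the common fit. The comparison crosses the letters and shares the vehicle libraries with vehicle against WT. The median of the 8 was -2.10, and that of all genes 0.037.

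The within-letter counterpart is combined treatment against WT, both named B but unlike in Xist and Ddx3y. Here every gene of the 8 overlapped between the groups, where 41.6% of all genes did not. Log2 fold changes were -0.44 ± 0.42 for Fos, -0.72 ± 0.42 for Fosb and -0.15 ± 0.42 for Fosl2 (SE). Jun was at -0.042 ± 0.76, Junb at -0.059 ± 0.71 and Atf3 at -0.058 ± 0.45. Jund was at 0.78 ± 0.66 and Maff at 0.84 ± 0.53. The edgeR quasi-likelihood test called 0 of the 8, as did DESeq2, where edgeR called 3.25% of all genes (579) and 4529 of all genes had an unadjusted p under 0.05. Single libraries move the smaller values: Fos was at -1.0003 without B24 and -0.063 without B25, Jun at 0.29 without B26 and -0.45 without B24, Atf3 at 0.24 without B25 and -0.51 without B26, Fosl2 at 0.12 without B25 and Junb at 0.035 without B26. The sign of Jun also turned without WT B28 (0.12) or B30 (0.13), that of Atf3 without B24 (0.072), B28 (0.020) or B30 (0.11), and that of Fosl2 without B31 (0.045). With GC content offsets Jund was at 0.44 and Atf3 at 0.0080. With standard errors between 0.42 and 0.76, equal levels are not shown for any of the 8. With upper quartile scaling the median of all genes in this comparison moved from 0.038 to -0.16.

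Each monotherapy group was also set against WT and against combined treatment, always across the letters and with libraries that the comparisons above share. Against WT, Fos was higher by 3.88 ± 0.47 with AG221 and by 4.38 ± 0.48 with ruxolitinib on the log2 scale (SE). Fosb was higher by 3.98 ± 0.44 and 3.96 ± 0.44, and Atf3 by 6.13 ± 0.40 and 6.02 ± 0.40, in the same order. Junb was at 0.70 ± 0.71 with AG221 and 2.12 ± 0.74 with ruxolitinib, and Jun at -0.30 ± 0.76 and 1.73 ± 0.78. Without A9 the AG221 values were -0.96 for Junb and -1.74 for Jun, and that of Jun was 0.12 without A8, 0.072 without A10 and 0.90 without both. Junb with AG221 was at 1.97 without both, a value of A9 alone, and at 1.57 ± 0.38 with GC content offsets (SE). Those offsets moved Jund from -0.33 to 1.56 with AG221 and from 0.33 to 0.96 with ruxolitinib (-0.21 without A14), and Maff with AG221 from -0.30 to 0.19. With AG221 3 of the 8 were called against WT (Fos, Fosb, Atf3), where 50.7% of all genes were. With GC content offsets 5 of the 8 were called there, where 5345 genes were called higher and 4040 lower. With ruxolitinib 4 were called (with Junb), where 32.3% of all genes were, but 3 without A14, A17, B25, B26 or any 1 WT library, and 5 by DESeq2, without the filter, without A9 and without both A8 and A10. Combined treatment was below AG221 by log2 fold changes of -4.32 for Fos, -4.70 for Fosb and -6.19 for Atf3, and below ruxolitinib by -4.82, -4.68 and -6.08. Those 3 genes were called in both comparisons, where 33.2% of all genes were called against AG221 and 12.4% against ruxolitinib. Against ruxolitinib 4 were called by DESeq2, with upper quartile scaling, without the filter, in a fit of the 2 groups, with GC content offsets, without A8, A9 or A16 and without both A8 and A10. With GC content offsets 5 were called against AG221, where 2864 genes were higher and 3654 lower. Those offsets moved Junb from -0.76 to -1.76 and Jund from 1.11 to -1.12, and Jund against ruxolitinib turned from 0.46 to -0.52. Also for combined treatment against AG221, Junb was at 0.92 without A9 and at -2.03 without A8 and A10. Jun in that comparison was at 0.26, at 1.72 without A9 and at -0.93 without A8 and A10. Junb also did not overlap between combined treatment and ruxolitinib, at -2.18, which makes 4 of 8 where 35.5% of all genes did not overlap.

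AG221 against ruxolitinib stays within the letter A and shares no library with the contrasts known when the genes were chosen, except through the common spread estimate of the fit. None of the 8 genes passed the edgeR quasi-likelihood test with Benjamini-Hochberg adjustment over all genes, and the groups overlapped in each, where 20.8% of all genes did not. Adjusted p from that edgeR test was 0.135 for Jun (log2 fold change -2.03 ± 0.79 SE, lower in A8 and A10 than in every ruxolitinib library), 0.231 for Junb (-1.42 ± 0.72) and 0.472 for Fos (-0.50 ± 0.42). It was 0.558 for Jund (-0.66 ± 0.66), 0.610 for Fosl2 (-0.37 ± 0.42), 0.705 for Maff (-0.36 ± 0.54), 0.854 for Atf3 (0.11 ± 0.30) and 0.983 for Fosb (0.018 ± 0.38) by the same edgeR test with Benjamini-Hochberg adjustment. Of all genes 3.43% were called (612), and 4554 had an unadjusted p under 0.05; DESeq2 called 1 of the 8 among 1302 genes higher and 1152 lower. Without A9 both Jun (-3.49) and Junb (-3.11) were called by that edgeR test among 1658 higher and 3150 lower, and without A8 and A10 Jun was at -0.84 and Junb at -0.16.

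Seen over all libraries, 3 of the 8 genes (Fos, Fosb, Atf3) had all 9 libraries named A above all 6 named B, a pattern of 790 tested genes (4.43%). The members were chosen with part of that pattern known, and it is a description.

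The members were also set beside the GC content of their transcripts. Exon GC content was 67.15% for Jund, 62.6% for Junb, 57.2% for Maff, 56.2% for Fosb and 55.5% for Jun, and 54.1% for Fos, 53.6% for Fosl2 and 51.2% for Atf3, against a median of 49.35% over tested genes. In AG221 A8, A10 and A9, Fosb was at 66.6, 62.7 and 89.7 CPM and Jun at 51.7, 65.8 and 364.5 CPM. Fosl2 was lowest among the libraries named A in A8, A10 and A16 (3.85, 4.77 and 3.93 CPM). The part of GC content in the Jun and Junb values was not tested.

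**Figure D4:**
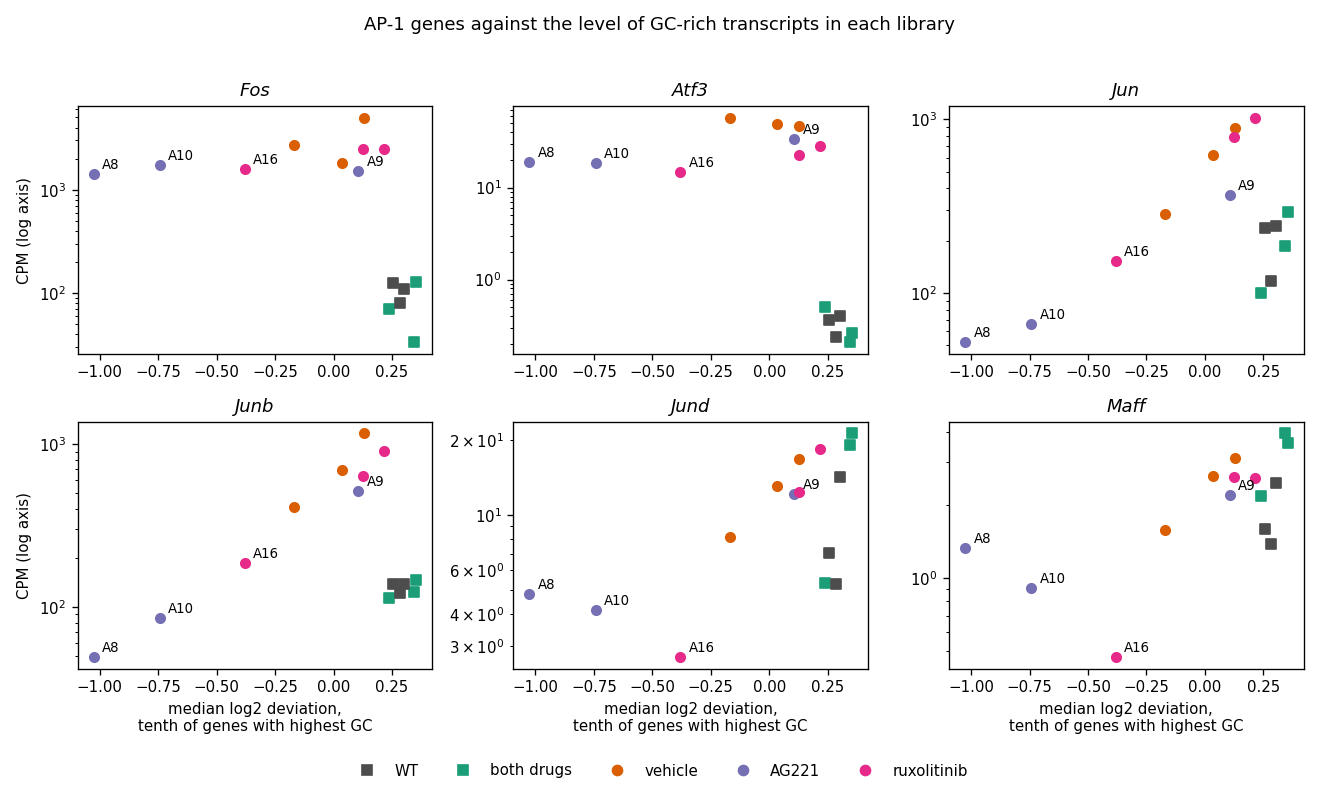
Level of Fos, Atf3, Jun, Junb, Jund and Maff in CPM (log axis, 1 panel each) against the median log2 deviation of the tenth of genes with the highest GC content in the same library (horizontal axis); points are the 15 libraries, squares named B and circles named A. A8 (-1.03), A10 (-0.74) and A16 (-0.38) lie far left, low within the circles for Jun, Junb, Jund and Maff, and far above the squares for Fos and Atf3.

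The lists of related genes that follow were chosen with earlier results of these libraries known, and their counts are descriptions from which nothing is read. Adjusted p-values of listed genes come from the same libraries as those results, so they are descriptions too and no independent test. Of all tested genes 15.4% were called higher and 17.9% lower between vehicle and WT, 8.28% and 4.21% between combined treatment and vehicle, and 1.63% and 1.61% between combined treatment and WT.

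The other genes of the AP-1 bZIP families were a list of 13, of which 11 were tested; Mafa (1 count in all) and Nrl (4 counts) were not. Between vehicle and WT 0 rose and 1 fell, and the list's median log2 fold change was -0.049. Maf, the large Maf factor c-Maf, fell (adjusted p = 0.0106, the edgeR quasi-likelihood test with Benjamini-Hochberg adjustment), at 3.71 ± 0.993 CPM in the WT group and 0.372 ± 0.382 CPM in the vehicle group (SD, n = 3 each). It ran from 0.0395 to 0.790 CPM with vehicle, in part under the limit that a count of 0 allows, so no fold is given. With both drugs Maf was at 2.29 CPM, a rise over vehicle (adjusted p = 0.0462 by the same edgeR test with Benjamini-Hochberg adjustment). Maf was at 1.58 CPM with AG221 and 1.94 CPM with ruxolitinib, and was not called between either group and vehicle. A gene on the opposite strand covers 5.34% of the Maf exons, and the level is uncertain by an amount that was not measured. Atf7, a relative of Atf2 with 11.7% of its exons shared on the same strand with another gene, was at 73.2 CPM with vehicle and 48.9 CPM with both drugs, a log2 fold change of -0.58 ± 0.18 (SE; adjusted p = 0.0439, the edgeR quasi-likelihood test with Benjamini-Hochberg adjustment). edgeR called 0 of the list for combined treatment against vehicle without A3, A4, A10, A14, B24, B25, B28, B30 or B31, where DESeq2 called 3 with all libraries. Between vehicle and WT, 2 were called without A4 or A16 and 4 without A9.

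Other relatives named here were not called between vehicle and WT. Atf2, a partner of c-Jun, was at 160 CPM in WT and 204 CPM with vehicle, a log2 fold change of 0.35. Batf (-0.092), Jdp2 (-0.049), Mafg (-0.18), Mafk (0.39) and Fosl1 (0.50) were not called, and neither were Batf2 (0.78) and Batf3 (-0.96). Of these, Fosl1, which encodes Fra-1, has 57.2% of its exons opposite another gene, and was at 2.16 CPM in WT and 3.05 CPM with vehicle. Mafk, a small Maf gene like Maff, was at 51.1 CPM with AG221 against 109 CPM with vehicle, and ran from 23.2 to 98.5 CPM over the AG221 libraries. Exons lie opposite another gene for 7.68% of Jdp2, 4.33% of Mafk and 2.02% of Batf2, and share a strand with one for 2.04% of Atf2 and 2.21% of Mafg.

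Kinases that act upstream of AP-1 were tested for 18 of 19 genes (Mapk10 had 45 counts in all). Between vehicle and WT 0 rose and 3 fell (3 of 18, where 17.9% of all genes fell), with a list median of -0.22. By the edgeR quasi-likelihood test with Benjamini-Hochberg adjustment, Map3k5 (ASK1) fell by 0.81 ± 0.18 (SE; adjusted p = 0.00849), from 14.4 ± 2.23 to 8.25 ± 0.678 CPM (SD, n = 3 each). Mapk14 (p38 alpha) fell by 0.91 ± 0.25 (adjusted p = 0.0182) and Map3k1 (MEKK1) by 0.63 ± 0.20 (adjusted p = 0.029) in the same edgeR test with Benjamini-Hochberg adjustment. With both drugs against vehicle 6 rose and 0 fell. Mapk14 rose by 1.54 ± 0.26 (adjusted p = 0.00314) and Map3k5 by 1.04 ± 0.18 (adjusted p = 0.00378) in edgeR's test with Benjamini-Hochberg adjustment. Between vehicle and WT, 1 kinase was called without WT B30, 2 without A1, A3, A4, B28 or B31, and 5 without A9.

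Factors that bind immediate early promoters were 12 genes, all tested. In vehicle-treated cells 0 rose and 2 fell against WT: Elk3, a ternary complex factor, by 0.57 ± 0.15 (SE; adjusted p = 0.0143) and Mef2a by 1.13 ± 0.31 (adjusted p = 0.0173, the edgeR quasi-likelihood test with Benjamini-Hochberg adjustment). Under combined treatment 3 rose over vehicle and 1 fell. Srf, the serum response factor, rose by 1.27 ± 0.27 (adjusted p = 0.00859), from 6.36 ± 0.546 to 15.3 ± 5.59 CPM (SD, n = 3 each; same edgeR test with Benjamini-Hochberg adjustment). Mef2a rose by 1.08 ± 0.31 (adjusted p = 0.0377) and Elk3 by 0.53 ± 0.15 (adjusted p = 0.0359), and Creb1, the factor of the cAMP response element, fell by 0.54 ± 0.14 (adjusted p = 0.0249), by the same edgeR test with Benjamini-Hochberg adjustment. Small parts of the exons of Elk3 (6.95%) and Mef2a (2.06%) lie opposite other genes. Of this list, 1 gene was called against WT without A1, A4 or B30, and in combined treatment against vehicle 1 without A1, A3, A4, B24 or B25 and 2 without A17, B26 or B28.

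A list of genes known as targets of AP-1 had 17 of 23 genes tested; Mmp3, Mmp13, Timp1, Il2, Csf2 and Areg had between 5 and 82 counts in all and were not. Against WT, 7 rose with vehicle and 1 fell, with a list median of 1.04. Cxcl2, a neutrophil-attracting chemokine, rose from 0.149 ± 0.139 to 64.7 ± 25.01 CPM (SD, n = 3 each; adjusted p = 7.31e-06, the edgeR quasi-likelihood test with Benjamini-Hochberg adjustment). It ran from 0.0335 to 0.303 CPM in WT and from 0.0522 to 0.380 CPM with both drugs, in part under the limit that a count of 0 allows, so no fold is given. Tnf rose by 3.65 ± 0.37 on the log2 scale (SE; adjusted p = 6.3e-05) in the same edgeR test with Benjamini-Hochberg adjustment. Ptgs2 (cyclooxygenase-2), known to differ when the lists were chosen and given with no p, was higher by 5.61 ± 0.41. Hmox1, the heme oxygenase gene, fell by 2.31 ± 0.54 (adjusted p = 0.00958, same edgeR test with Benjamini-Hochberg adjustment). With both drugs against vehicle 0 rose and 4 fell, among them Cxcl2 (adjusted p = 2.71e-05) and Tnf (log2 fold change -3.63 ± 0.37, adjusted p = 0.000141) in the same edgeR test with Benjamini-Hochberg adjustment, and Ptgs2 (-5.76 ± 0.42). Tnf, Cxcl2 and Ptgs2 had all 9 libraries named A above all 6 named B, like Fos, Fosb and Atf3. They were 3 of 17 tested targets, where 4.43% of all tested genes had that pattern. With AG221 against vehicle, within the letter A, 1 target fell and 0 rose, where 0.516% of all genes were called lower and 0.471% higher. It was Il6, at 5.16 ± 0.951 CPM with vehicle and 1.79 ± 0.299 CPM with AG221 (SD, n = 3 each). On the log2 scale Il6 fell by 1.52 ± 0.32 (SE; adjusted p = 0.0458, the edgeR quasi-likelihood test with Benjamini-Hochberg adjustment). When each library was left out in turn, edgeR called 4 targets there without A9 and 0 without any other library, and DESeq2 called 2 with all libraries. Ptgs2 (-0.56 ± 0.33) and Tnf (0.29 ± 0.33) were not called. With ruxolitinib against vehicle edgeR called 0 targets and DESeq2 1, and Il6 was at 1.31 ± 0.172 CPM (SD, n = 3) and a log2 fold change of -1.98 ± 0.32, farther from 0 than with AG221 (adjusted p = 0.0985 by the same edgeR test with Benjamini-Hochberg adjustment). Between combined treatment and WT, within the letter B, 2 targets rose and 1 fell, and the list median was 0.015. The 2 that rose were Ccl2 and Il1b. Mean Ccl2 was 0.346 CPM in WT, 4.42 with both drugs and 8.45 with vehicle, and mean Il1b 0.379, 2.81 and 5.175 CPM. Neither was called between combined treatment and vehicle. For combined treatment against WT, edgeR called 0 targets without B25 or B28 and 1 without B26, B30 or B31, where DESeq2 called 4 with all libraries.

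Other immediate early genes, which share their inducing signals with Fos and Jun, were a list of 24 genes, all tested. In vehicle-treated cells 17 rose against WT and 0 fell, with a list median of 2.497. Klf6 and Ier3 were known to differ when the list was chosen and are given with no p, Klf6 higher by 3.59 ± 0.20 and Ier3 by 2.65 ± 0.16 (SE). Btg2 rose by 3.61 ± 0.31 (adjusted p = 1.7e-05) by the edgeR quasi-likelihood test with Benjamini-Hochberg adjustment. In the combined group 0 rose over vehicle and 16 fell, with a median of -2.72. Klf6 was at -3.65 ± 0.20 and Ier3 at -2.41 ± 0.16, and Btg2 fell by 3.57 ± 0.31 (adjusted p = 3.24e-05) in the same edgeR test with Benjamini-Hochberg adjustment. Between combined treatment and WT, edgeR and DESeq2 each called 0 and the median was 0.05. With AG221 and with ruxolitinib against vehicle, edgeR called 0 of the 24, at medians of -0.78 and -0.45; without A9, edgeR called 12 with AG221, and DESeq2 called 6 with AG221 and 1 with ruxolitinib. Of the 24, 12 had all libraries named A above all named B, among them Egr1, Nr4a1 and Zfp36, where 4.43% of all tested genes did. As with Jun and Junb, some were low in A8 and A10: relative to the WT mean on the log2 scale, Ier2 was at -1.64 in A8 and -1.11 in A10, and between 0.063 and 2.93 in the other libraries named A. Klf6 was between 2.55 and 3.76 in all 9.

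**Figure D5:**
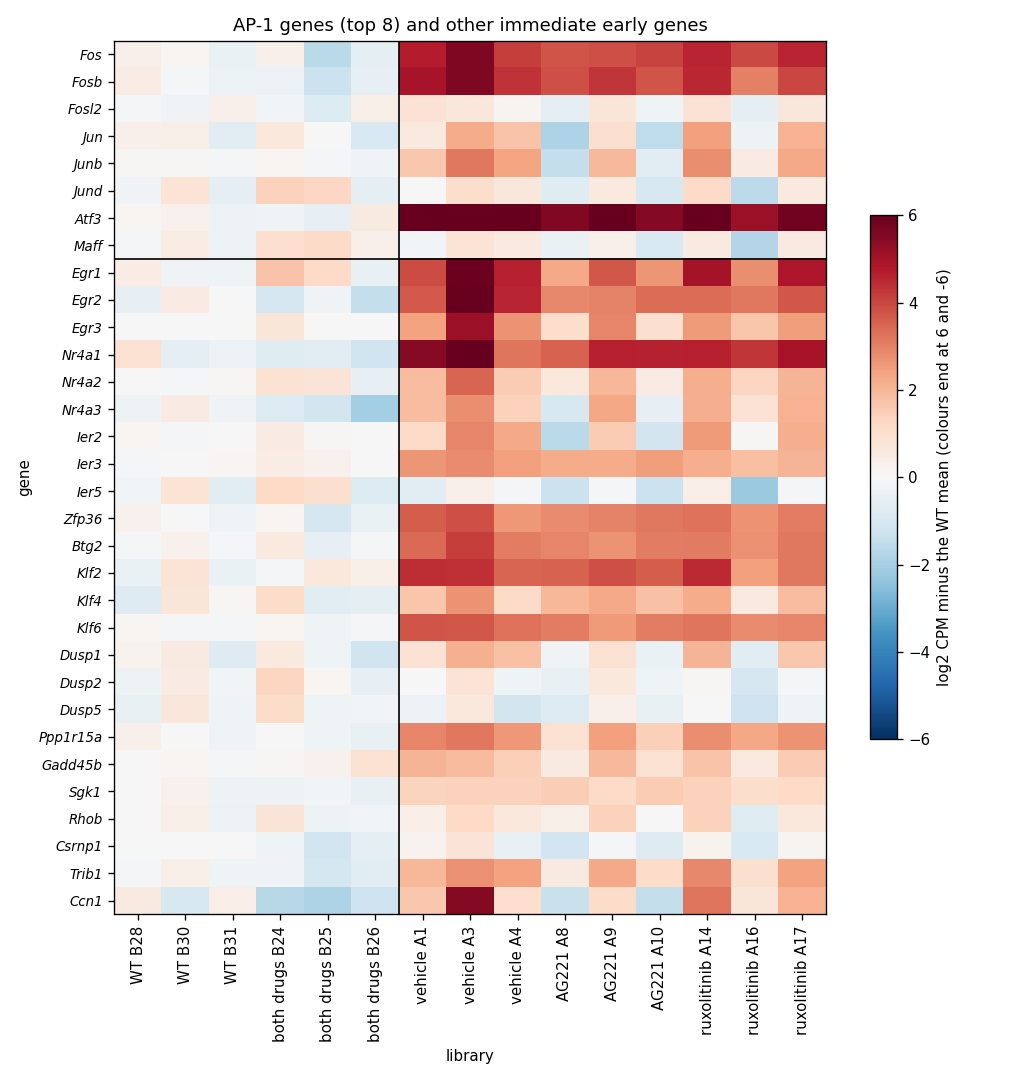
Heat map of log2 CPM minus the mean of the 3 WT libraries for the 8 AP-1 genes (top rows) and 24 other immediate early genes in each of the 15 libraries (columns); colours end at 6 and -6. Fos, Fosb and Atf3 are high in all 9 libraries named A, as is Klf6 (2.55 to 3.76), while Jun (-1.86) and Ier2 (-1.64) are low in AG221 A8.

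Factors of the decay of AU-rich mRNAs, a class that includes Fos and Jun mRNA, were 14 genes, all tested; 4 rose and 4 fell with vehicle against WT. Zfp36 (tristetraprolin, itself an early gene and a member of both lists) rose by 3.44 ± 0.33 (SE; adjusted p = 4.42e-05, the edgeR quasi-likelihood test with Benjamini-Hochberg adjustment), from 195 ± 34.4 to 2119 ± 838.5 CPM (SD, n = 3 each). Cnot1, the scaffold of the deadenylase complex, rose by 0.72 ± 0.19 (adjusted p = 0.0148) and Zfp36l1 by 1.19 ± 0.33 (adjusted p = 0.0174) in the same edgeR test with Benjamini-Hochberg adjustment; 55.9% of the Zfp36l1 exons lie opposite another gene. Cnot6, known to differ when the list was chosen, fell by 0.67 ± 0.18, Tob1 by 1.84 ± 0.61 (adjusted p = 0.0355) and Elavl1 (HuR, which stabilises such mRNAs) by 0.96 ± 0.34 (adjusted p = 0.0429), also by edgeR's test with Benjamini-Hochberg adjustment. With both drugs 4 rose over vehicle and 3 fell. Cnot6 rose by 1.49 ± 0.18, Hnrnpd (AUF1) by 1.196 ± 0.19 (adjusted p = 0.00271) and Elavl1 by 1.93 ± 0.34 (adjusted p = 0.00381), and Zfp36 fell by 3.82 ± 0.34 (adjusted p = 3.69e-05), Cnot1 by 0.88 ± 0.19 (adjusted p = 0.00964) and Zfp36l1 by 1.24 ± 0.33 (adjusted p = 0.0262) in the same edgeR test with Benjamini-Hochberg adjustment. Without WT B30 1 gene of this list was called between vehicle and WT, without A1 2, and without A4 or B28 5. Antisense genes cover 5.24% of the exons of Hnrnpd, 3.602% of Zfp36, 1.97% of Elavl1 and 0.769% of Cnot1.

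Heat shock genes, which respond to cell stress as Atf3 does, were tested for 13 of 14 (Hspb1 had 37 counts). With vehicle 3 rose against WT and 0 fell, with a list median of 0.56: Hspa5 (BiP) by 2.11 ± 0.16 (SE; adjusted p = 3.87e-06), Hsp90aa1 by 0.80 ± 0.22 (adjusted p = 0.0162) and Hspd1 by 0.81 ± 0.27 (adjusted p = 0.0329) in the edgeR quasi-likelihood test with Benjamini-Hochberg adjustment. Under combined treatment 0 rose over vehicle and 4 fell, among them Hspa5 (log2 fold change -1.89 ± 0.15, adjusted p = 2.5e-05), the stress-inducible Hspa1b (-4.32 ± 1.03, adjusted p = 0.0146) and Hspa1a (adjusted p = 0.00261) by the same edgeR test with Benjamini-Hochberg adjustment. Hspa1a ran from 2.33 to 8.46 CPM with vehicle and from 0 to 0.0925 CPM with both drugs, under the limit that a count of 0 allows, so no fold is given. WT had 4.62 CPM of Hspa1a and 23.3 CPM of Hspa1b, against 4.65 and 8.63 CPM with vehicle, and between combined treatment and WT 0 heat shock genes rose and these 2 fell (0 called without B25). Hspa1a has 19.01% of its exons opposite another gene and shares much of its sequence with Hspa1b, so both are uncertain. Of the Hspd1 exons, 4.24% lie opposite another gene. Between vehicle and WT 1 heat shock gene was called without A4 or B30, 5 without A14, A17 or B31, 7 without A3 or A16 and 9 without A9; between combined treatment and vehicle 2 were called without A1, B24 or B25.

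The 10 tested genes outside the 8 whose log2 CPM followed the mean of the 8 scaled genes most closely over the 15 libraries (Pearson's r, a description with no p, over libraries that share group, letter and base composition) were Rassf1 (0.963), Gm43403 (0.95), Egr4 (0.95), Gm37352 (0.945), Gdf15 (0.94), Dusp1 (0.936), Gm38257 (0.933), Nfkbid (0.921), Nfkbiz (0.919) and Gm43817 (0.918). Within the 9 libraries named A, r was between 0.919 (Gm43817) and 0.983 (Nfkbiz). Within the 6 named B it was 0.838 for Dusp1, a MAP kinase phosphatase, 0.607 for Gm37352 and 0.595 for Gm43817, and between -0.267 (Nfkbid) and 0.373 (Gdf15) for the rest. Rassf1 has 42.7% of its exons opposite Gm9917, and Gm43403 is annotated as an antisense RNA, so these 2 levels are uncertain. The mean scaled level of the 8 genes was highest in vehicle A3 (1.17), ruxolitinib A14 (1.04) and A17 (0.802). It was -0.499 in A10, -0.569 in A8 and -0.628 in A16, within the range of the libraries named B (-0.781 to -0.21), although Fos, Fosb and Atf3 were far higher in those 3 libraries than in any named B.

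Markers of LSK cells and of the cells a sort could also hold were summed per library. LSK and stem cell genes (11 of 11 tested, none at 0, Kit or in B26 Cd34 the most abundant) summed to 4681, 4291 and 4311 CPM in WT, 3667, 2836 and 3318 with both drugs, 3600, 3812 and 2444 with vehicle, 2789, 2567 and 2995 with AG221 and 2923, 3144 and 3448 with ruxolitinib, the labelled cell type's own markers being present in every library. Between vehicle and WT 2 rose and 3 fell. Monocyte and neutrophil genes (11 of 11 tested, Mpo the most abundant, Ly6g at 0 in B30) summed to 3544, 3791 and 3380 CPM in WT, 4032, 5025 and 6859 with both drugs, 7314, 12000 and 8645 with vehicle, 19100, 16820 and 15820 with AG221 and 18090, 11470 and 13470 with ruxolitinib. In vehicle-treated cells 5 of them rose against WT and 0 fell, and with both drugs against vehicle 0 rose and 2 fell. Mast cell and basophil genes (6 of 6 tested, Cpa3 or in B28 Prss34 the most abundant, none at 0) summed to 152, 75.2 and 111 CPM in WT, 259.7, 309.8 and 424.5 with both drugs, 542, 621 and 1005 with vehicle, 514, 667 and 664 with AG221 and 287.7, 314 and 289 with ruxolitinib. Of these, 5 rose and 0 fell between vehicle and WT, and with both drugs against vehicle 0 rose and 2 fell.

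Genes of B lineage and plasma cells (8 of 8 tested, Ighm the most abundant, none at 0) summed to 5219, 10850 and 3449 CPM in WT, 333.5, 232.6 and 627 with both drugs, 229, 114 and 214 with vehicle, 266, 304 and 259 with AG221 and 433, 768 and 224 with ruxolitinib. The sums of this list, like those of every other marker list here, did not overlap between WT and combined libraries; 0 rose and 4 fell with vehicle against WT. T and NK cell genes (6 of 7 tested, Nkg7 the most abundant) summed to 168, 160.6 and 225 CPM in WT, 366, 404 and 391.5 with both drugs, 458, 411 and 419.6 with vehicle, 763, 600.2 and 684 with AG221 and 512, 426 and 531 with ruxolitinib. Nkg7, which rose with vehicle against WT, made up most of each sum (453.6 of 458 CPM in A1). The other 5 were not called and the list median was -1.27, with Cd4 at 3.45 ± 0.172 CPM in WT and 0.733 ± 0.691 CPM with vehicle (SD, n = 3 each). Cd3e, Cd3g, Cd4 and Ncr1 were at 0 in A4 and Ncr1 in A1, A16 and A17. Erythroid genes (7 of 7 tested, Gata1, Klf1 or Hbb-bs the most abundant, none at 0) summed to 104, 118 and 134 CPM in WT, 250.7, 485 and 274 with both drugs, 286, 270 and 501 with vehicle, 267, 381 and 289.6 with AG221 and 317, 1333 and 294 with ruxolitinib; 2 rose and 0 fell with vehicle. Megakaryocyte genes (6 of 6 tested, Itga2b the most abundant, none at 0) summed to 338, 249.2 and 277 CPM in WT, 668, 935 and 496 with both drugs, 921, 879 and 860.4 with vehicle, 352, 583 and 492.5 with AG221 and 693, 779 and 665 with ruxolitinib; 3 rose and 0 fell with vehicle. The part of these cell types in the AP-1 levels was not tested.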

How the data were processed

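RNA of sorted cells was amplified with SMARTer and sequenced from both ends. The authors aligned the reads with STAR 2.5.1a to mm10 and deposited raw read counts per Ensembl gene; the release and the strand setting are not stated. The table of normalized counts that the authors made with DESeq2 (1.6.3 in the submitters' processing notes) was not used. GENCODE M21 (GRCm38) matched 44585 of 45232 IDs to symbols, coordinates and exon overlaps, and 647 had no match. The members and lists were chosen with earlier results of these data known.

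Counts of all 15 libraries entered 1 edgeR 4.0.16 quasi-likelihood fit (R 4.3.3) with 5 groups and no covariate, after filterByExpr and TMM, giving 10 comparisons with Benjamini-Hochberg adjustment over 17834 genes. Standard errors are the log2 fold change over the square root of F, and the prior count of log2 CPM was 2. The common biological coefficient of variation was 0.313; replicates had Pearson's r of 0.960 to 0.987 across genes and differed by more than counting error. The steps were tested on simulated data.

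Named are the 8 members, every tested gene of the other AP-1 bZIP list, for the other 6 lists up to 3 called genes per direction with the smallest adjusted p in vehicle against WT and combined treatment against vehicle, and the 10 genes with the highest Pearson's r to the members' mean scaled log2 CPM. Other genes named, such as Il6, Ier2, Egr1, Nr4a1 and the cell markers, were picked after their values were seen. Some genes that the rule takes are not reported here. Alternatives were DESeq2 1.42.0, RLE and upper quartile scaling, no filter beyond 1 count, fits of only the groups compared, the medians without Fos and Atf3, and leaving out each library. GC content offsets (lowess, span 0.3) and leaving out AG221 A8 and A10 were chosen after seeing the data.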

Additional observations from a re-analysis of the deposited data

How the results depend on the processing

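The median of the 8 log2 fold changes kept its sign when each library was left out in turn for vehicle against WT (1.64 to 2.39), ruxolitinib against WT (1.46 to 2.42), combined treatment against vehicle (-2.43 to -1.68) and against ruxolitinib (-2.46 to -1.49), AG221 against vehicle (-1.35 to -0.65) and AG221 against ruxolitinib (-0.82 to -0.11). It changed sign for combined treatment against WT (-0.17 to 0.061), ruxolitinib against vehicle (-0.71 to 0.056), AG221 against WT (-0.54 without A9 to 0.76 without A8) and combined treatment against AG221 (-0.88 without A8 to 0.60 without A9). Without Fos and Atf3 the median was 1.09 for vehicle against WT and -1.19 for combined treatment against vehicle, and turned for AG221 against WT (-0.11) and combined treatment against AG221 (0.020). With GC content offsets it was 1.57 for AG221 against WT and -1.44 for combined treatment against AG221, and without A8 and A10 1.44 and -1.48, and 0.18 for AG221 against ruxolitinib; the cause was not tested.

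Signs that turned in AG221 against ruxolitinib were those of Fosb (-0.28 without A16 and -0.16 without A9, up to 0.38), Atf3 (-0.24 without A9 and -0.093 without A16, up to 0.33 without A14 and 0.62 without A8 and A10), Jund (0.60 with GC content offsets), Maff (0.013 with the offsets) and, without A8 and A10, Fosl2 (0.30), Jund (0.13) and Maff (0.22). DESeq2 called Jun there (-2.02, Benjamini-Hochberg adjusted p = 0.0335). In that comparison 9 alternative values of members changed sign and 3 passed the threshold (Jun and Junb without A9, and Jun by DESeq2). In the 9 others 29 moved by more than the spread between replicates and 0 called members changed sign.

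Counts of all genes called higher and lower were 2747 and 3190 for vehicle against WT, but 844 and 1057 without B30, 1306 and 3586 with upper quartile scaling and 4145 and 2774 with GC content offsets, and 5503 were lower without the filter. AG221 against vehicle had 84 and 92, but 1261 and 1122 by DESeq2 and 1497 and 3175 without A9. It had 571 and 167 with upper quartile scaling and 190 and 175 with GC content offsets. The counts were 0 and 0 without A1, A4, A8 or A10 and in a fit of the 2 groups only, and 24 and 3 without A3. They were at most 1 and 0 without any 1 library of the 3 other groups. Ruxolitinib against vehicle had 0 and 3, and 7 and 48 by DESeq2. Against WT, AG221 had 3962 and 5078 (3306 lower without A8). Ruxolitinib against WT had 2867 and 2892 (1037 and 873 without B30, 1711 and 3320 with upper quartile scaling). Combined treatment against vehicle had 1476 and 750 (693 higher without A1, 302 lower without B25, 2034 and 1070 by DESeq2). Against WT it had 291 and 288 (50 and 38 without B25, 1050 and 905 by DESeq2, 102 and 539 with upper quartile scaling). Against AG221 it had 3371 and 2546 (1709 higher without A8, 1137 lower without B24, 2671 and 4359 with upper quartile scaling, 2864 and 3654 with GC content offsets). Against ruxolitinib it had 1515 and 702 (847 higher without A16, 274 lower without B24). AG221 against ruxolitinib had 367 and 245, but 1302 and 1152 by DESeq2 and 1658 and 3150 without A9. It had 701 and 185 with upper quartile scaling and 511 and 264 with GC content offsets. The counts were 0 and 1 without A14, 5 and 1 without A8, 102 and 8 without A10, and 0 and 0 without A17 and in the fit of 2 groups. Each group has 3 libraries, Atf3 in WT and combined libraries rests on 5 to 12 counts, and no comparison between the letters has a value within a letter.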
